A study of Mus musculus with 2 samples.

Results

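The AP-2 family of transcription factors was examined in the mouse embryonic hindbrain. Its members were taken by name, as the 5 genes Tfap2a, Tfap2b, Tfap2c, Tfap2d and Tfap2e among the 43346 gene identifiers of the deposited tables, with all 16 of their listed transcripts. The family was selected on measured values, namely the TPM of Tfap2d in both libraries and its ratio between them, so the levels and ratios of its members are descriptions and carry no test. Hindbrain of the mouse strain B6NCrl was dissected at embryonic day 15.5, with both sexes pooled and no allele or treatment named in the labels. The 2 biological replicates form 1 group: replicate 2 is a pool from 62 embryos and replicate 1 a pool from 78 embryos. The input of each library was 10 ng of total RNA above 200 nt in size, with synthetic spike-in RNA added.

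AP-2 proteins bind GC-rich DNA as dimers, through a basic region next to a helix-span-helix dimerization domain in the carboxy-terminal part, and activate or repress transcription through an amino-terminal region. They are best known from neural crest, surface ectoderm, face and limb. In the developing hindbrain, AP-2alpha and AP-2beta are known from GABAergic neurons of the cerebellum, where they act after Ptf1a, and from noradrenergic neurons of the locus coeruleus. AP-2delta, the product of Tfap2d, is known from the posterior midbrain, where mice that lack it do not maintain the inferior colliculus.

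Depth was similar, at 43263959 counts over all genes in replicate 2 against 40020322 in replicate 1. TPM, the unit of the levels, is the relative abundance per transcript length, and the SD is that over the 2 libraries. Ratios are replicate 2 over replicate 1 on the log2 scale after TMM scaling, over the 17059 genes whose mean count reached 20. Their median was -0.00161 and their SD 0.403. Of those genes, 1.93% passed 2-fold in either direction, 1.36% as lower and 0.574% as higher in replicate 2. With 1 library a pool no p-value was computed, and the 95% exact (Clopper-Pearson) intervals of the ratios cover counting error only. Nothing in the labels says whether the 2 dissections had the same limits. In bulk tissue, fewer cells of a type and less RNA per cell cannot be told apart.

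Tfap2b dominated the family, Tfap2a and Tfap2d stood below it, and Tfap2c and Tfap2e were under 1 TPM in each library. Thus 3 of the 5 members were at 1 TPM or more in both libraries, against 63.1% of 21461 nuclear protein-coding genes. The order was Tfap2b, Tfap2a, Tfap2d, Tfap2c and Tfap2e in replicate 2, and Tfap2b, Tfap2d, Tfap2a, Tfap2e and Tfap2c in replicate 1. Tfap2b was first in both orders, whereas Tfap2d changed place with Tfap2a and Tfap2c with Tfap2e. The levels of Tfap2a and Tfap2d were 7.6 ± 1.18 and 13.1 ± 15.4 TPM (SD, n = 2), and differed by less than the spread of Tfap2d. The levels of Tfap2c and Tfap2e, 0.425 ± 0.29 and 0.335 ± 0.106 TPM (SD, n = 2), likewise differed by less than their spread.

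**Figure D1:**
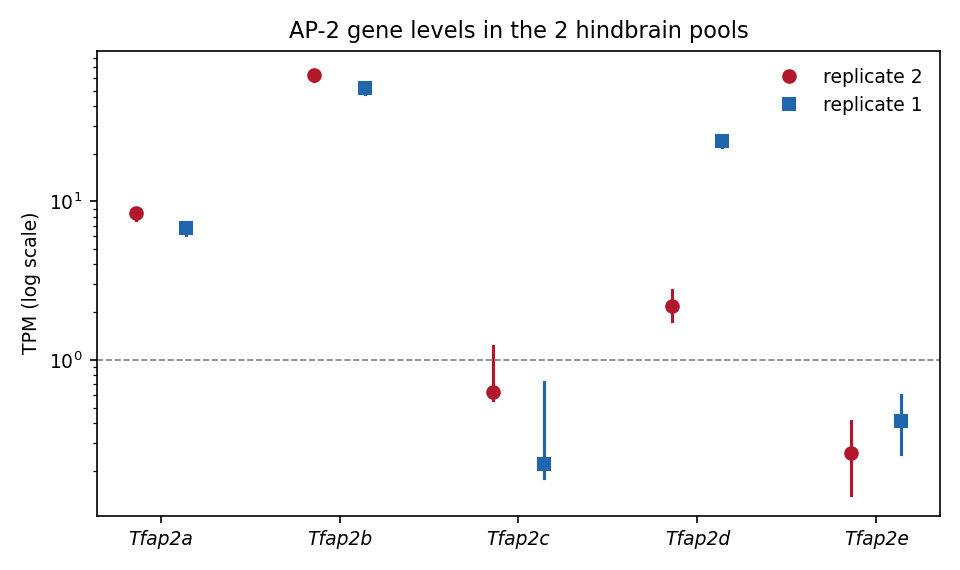
Level of each AP-2 gene in TPM on a log axis, with replicate 2 left of replicate 1 and bars for the deposited interval of the estimate. Tfap2b stands highest in both libraries, at 62.65 TPM in replicate 2 against 52.07 TPM in replicate 1, and Tfap2d has the widest gap, at 2.20 TPM in replicate 2 against 24.04 TPM in replicate 1.

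The summed level of the 5 genes was 74.18 TPM in replicate 2, against 83.51 TPM in replicate 1. Without Tfap2d the sum was 71.98 TPM in replicate 2, against 59.47 TPM in replicate 1, so that the order of the libraries turned round. Tfap2b made up 84.5% of the family's TPM in replicate 2, against 62.4% in replicate 1. Tfap2d made up 2.97% in replicate 2 and 28.8% in replicate 1. The level of Tfap2b was 7.42 times that of Tfap2a in replicate 2 and 7.69 times in replicate 1. It was 28.5 times that of Tfap2d in replicate 2 and 2.17 times in replicate 1. Thus the proportion between Tfap2b and Tfap2a was nearly the same in the libraries, and that between Tfap2b and Tfap2d was not.

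Tfap2b (ENSMUSG00000025927), which encodes AP-2beta, lies on the plus strand at chr1:19208914-19238576 of GRCm38. It had 62.65 TPM in replicate 2, from 3808 counts, against 52.07 TPM in replicate 1, from 3145 counts, a mean of 57.4 ± 7.48 TPM (SD, n = 2). The deposited interval of the estimate was 57.4 to 65.6 TPM in replicate 2, against 47.7 to 55.1 TPM in replicate 1. These intervals did not overlap, and replicate 2 was the higher library. The log2 ratio was 0.16 (0.09 to 0.23), less than the SD over all genes compared. Of those genes 83.5% had a lower ratio, and 6218 had a larger ratio in either direction.

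Tfap2a (ENSMUSG00000021359), which encodes AP-2alpha, lies on the minus strand at chr13:40715302-40738376. Its level was 8.44 TPM in replicate 2, from 686.19 counts, against 6.77 TPM in replicate 1, from 519.56 counts. The interval was 7.67 to 8.91 TPM in replicate 2, against 6.09 to 7.23 TPM in replicate 1. Replicate 2 was again the higher library, without overlap. The log2 ratio of 0.29 (0.12 to 0.45) was also within the SD over all genes. Still, 92.3% of the genes compared had a lower ratio, and 3319 had a larger ratio in either direction.

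Tfap2d (ENSMUSG00000042596), which encodes AP-2delta, lies on the plus strand at chr1:19103022-19166346. It had 2.20 TPM in replicate 2, from 92.94 counts, against 24.04 TPM in replicate 1, from 993.92 counts. The deposited interval was 1.77 to 2.77 TPM in replicate 2, against 22.1 to 25.4 TPM in replicate 1. Replicate 2 was the low library and the intervals stood far apart. After scaling, Tfap2d was 11.5-fold lower in replicate 2 (95% interval 9.34 to 14.5), a log2 ratio of -3.52 (-3.85 to -3.22). Of all 17059 genes compared, 11 had a lower ratio and 26 a larger ratio in either direction. Among the 12969 nuclear protein-coding genes whose mean count reached 100 it had the second lowest ratio, and 0.311% of all genes at that count were past 2-fold and lower.

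Tfap2c (ENSMUSG00000028640), which encodes AP-2gamma, a factor known from trophoblast and germ cells, lies on the plus strand at chr2:172549593-172558622. Its level was 0.63 TPM in replicate 2, from 47 counts, against 0.22 TPM in replicate 1, from 13 counts. Replicate 2 was the higher library, with a log2 ratio of 1.70 (0.83 to 2.75), or 3.26-fold. The deposited intervals, 0.554 to 1.21 TPM in replicate 2 and 0.179 to 0.721 TPM in replicate 1, overlapped. The posterior mean level in the same tables was 0.86 TPM in replicate 2, against 0.41 TPM in replicate 1, while the log2 ratio of posterior mean counts was 1.70 as well. As a ratio of TPM, the log2 value was 1.19 with a pseudocount of 0.1 and 0.42 with a pseudocount of 1. With both levels below 1 TPM, the second setting could not give 2-fold, so the loss of the call was fixed in advance.

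Tfap2e (ENSMUSG00000042477), which encodes AP-2epsilon, a factor known from the olfactory bulb and the vomeronasal organ, lies on the minus strand at chr4:126716006-126736240. It had 0.26 TPM in replicate 2, from 14 counts, against 0.41 TPM in replicate 1, from 21 counts. The intervals of 0.141 to 0.410 TPM in replicate 2 and 0.254 to 0.599 TPM in replicate 1 overlapped. Its mean count was below 20, so it was not among the genes compared. A count of 3 would give Tfap2e 0.056 TPM in replicate 2, against 0.059 TPM in replicate 1, so its level stood above that floor in both.

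Of the 4 members compared, 1 was past 2-fold and lower in replicate 2 (Tfap2d) and 1 was past 2-fold and higher (Tfap2c). Over all genes those shares were 1.36% and 0.574%. Since Tfap2d was among the reasons for choosing the family, nothing is read from its count.

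**Figure D2:**
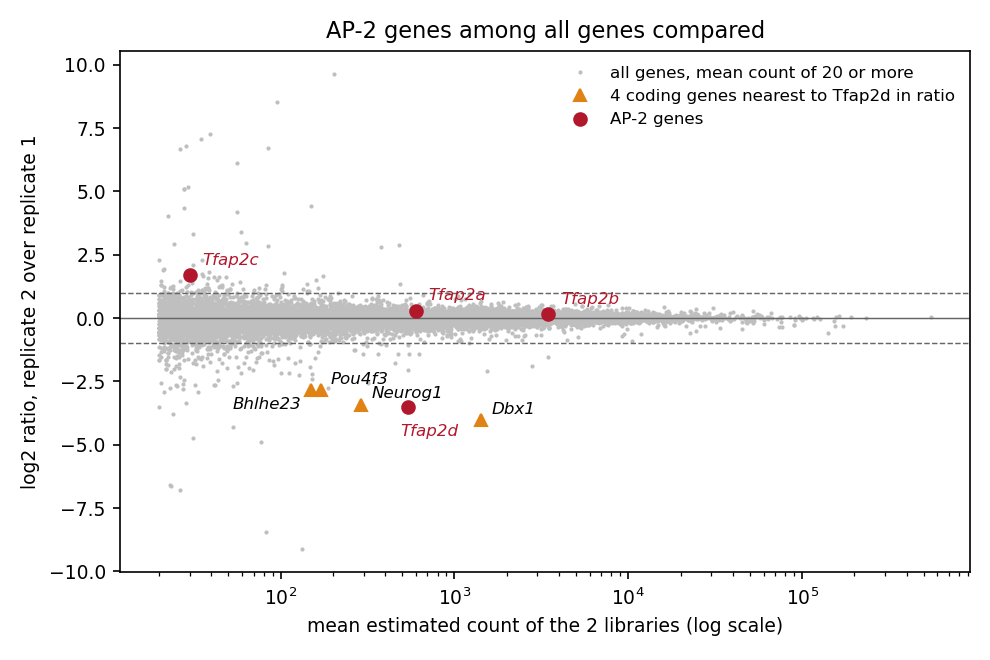
Log2 ratio of replicate 2 over replicate 1 against mean count on a log axis, for all 17059 genes compared in grey and the 4 AP-2 genes compared in colour, and the 4 coding genes nearest to Tfap2d as triangles. Dashed lines mark 2-fold. Tfap2d lies at -3.52 below the cloud of genes, Tfap2c at 1.70 above it, and Tfap2a and Tfap2b lie within it at 0.29 and 0.16.

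At transcript level, Tfap2d had 2 listed transcripts, and both were lower in replicate 2. Tfap2d-201, of 1761 nt and 8 exons with a coding sequence of 1356 nt, had 1.95 TPM in replicate 2, against 22.52 TPM in replicate 1. It held 89% of the gene's TPM in replicate 2, against 93.6% in replicate 1, so the coding transcript led in both. The processed transcript Tfap2d-202, of 745 nt, had 0.24 TPM in replicate 2, against 1.53 TPM in replicate 1. These rested on 4.32 counts in replicate 2 and 25.53 counts in replicate 1. Its deposited intervals of 0.0442 to 0.704 TPM in replicate 2 and 0.641 to 2.94 TPM in replicate 1 overlapped, in contrast to those of Tfap2d-201.

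The level of Tfap2b was spread over 5 transcripts, none of which held 50% or more of its TPM. Tfap2b-204, which is protein-coding, was first with 18.01 TPM in replicate 2, against 16.23 TPM in replicate 1. That was 28.8% of the gene in replicate 2 and 31.2% in replicate 1. The other coding transcripts, Tfap2b-202 and Tfap2b-201, stood at 13.17 and 8.84 TPM in replicate 2, against 11.07 and 7.83 TPM in replicate 1, and Tfap2b-201 was the lowest of the 5 in both. Of the retained-intron transcripts, Tfap2b-205 had 13.46 TPM in replicate 2, against 8.27 TPM in replicate 1, and Tfap2b-203 had 9.16 TPM in replicate 2 against 8.67 TPM in replicate 1. The intervals of Tfap2b-205, 8.45 to 17.6 TPM in replicate 2 and 4.42 to 12 TPM in replicate 1, overlapped. Both retained-intron transcripts together held 36.1% of the gene's TPM in replicate 2, against 32.5% in replicate 1. The same transcripts held 8.18% of its estimated counts in replicate 2 and 7% in replicate 1, because TPM divides by their short lengths. Total RNA also contains unspliced RNA, whose part in these transcripts was not tested.

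Tfap2a-201 held 94% of the TPM of Tfap2a in replicate 2 and 89.1% in replicate 1. Its level was 7.93 TPM in replicate 2, against 6.03 TPM in replicate 1, and its intervals of 7.12 to 8.41 TPM in replicate 2 and 5.24 to 6.49 TPM in replicate 1 did not overlap. Tfap2a-202 had 0.51 TPM in replicate 2, against 0.74 TPM in replicate 1, and its intervals overlapped. The annotation of the tables differs here from the later GENCODE M21, which lists 9 transcripts of Tfap2a against 2 in the tables and gives Tfap2a-201 3487 nt against 3089. For the other 15 transcripts of the family the lengths were the same.

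Tfap2c had 6 listed transcripts, of which 4 were at 0 counts in each library. Tfap2c-201 held 76.2% of the TPM in replicate 2, against 45.5% in replicate 1. Its level was 0.48 TPM in replicate 2, against 0.10 TPM in replicate 1. The second transcript with counts was Tfap2c-206 in replicate 2, at 0.15 TPM, and Tfap2c-203 in replicate 1, at 0.12 TPM. With 47 counts in replicate 2 and 13 in replicate 1 over the whole gene, the transcripts of Tfap2c were not resolved at this depth. Tfap2e had 1 listed transcript.

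**Figure D3:**
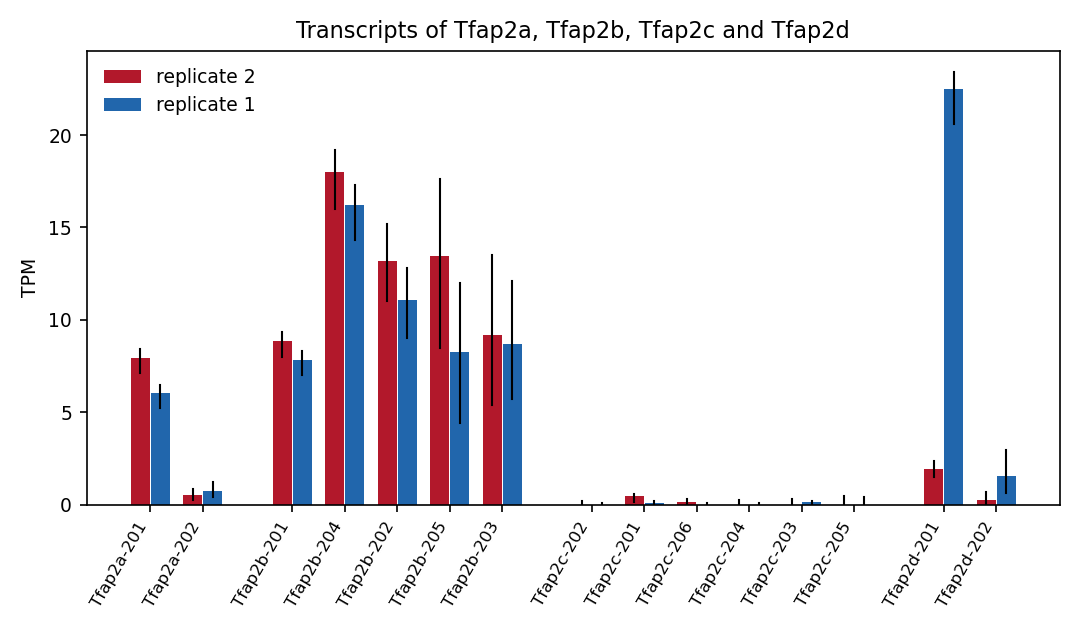
Level in TPM of the 15 transcripts of Tfap2a to Tfap2d as bars, replicate 2 left of replicate 1, with lines for the deposited interval. Both Tfap2d transcripts are lower in replicate 2, and the 5 Tfap2b transcripts stand between 7.83 and 18.01 TPM in both libraries.

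The members are related in sequence, so the chance that reads of one were counted for another was examined on their annotated transcripts. No pair shared a run of 31 nt or longer, and coding identity lay between 53.8%, for Tfap2c and Tfap2d, and 64.3%, for Tfap2a and Tfap2b. The longest identical coding runs of 4 pairs, which together include every member, are printed without capitals. They were sought only in the coding sequence of the leading coding transcript of each gene. Outside it, only shared runs of 31 nt or longer were looked for. The run of 29 nt shared by Tfap2a and Tfap2b lies in exon 7 of both genes, at chr13:40717215-40717243 on the minus strand and chr1:19234210-19234238 on the plus strand. The run of 22 nt shared by Tfap2c and Tfap2e lies in exon 5 of both, at chr2:172554045-172554066 on the plus strand and chr4:126720579-126720600 on the minus strand. The run of 17 nt shared by Tfap2d and Tfap2e lies in exon 6 of both, at chr1:19142884-19142900 on the plus strand and chr4:126719490-126719506 on the minus strand. The run of 14 nt shared by Tfap2b and Tfap2d lies in exon 7 of both, at chr1:19234055-19234068 and chr1:19148309-19148322 on the plus strand.
Tfap2a and Tfap2b: acggccctgcagaactatctcaccgaggc
Tfap2c and Tfap2e: aagtccaaaaatggaggccggt
Tfap2d and Tfap2e: gagtttccagccaaggc
Tfap2b and Tfap2d: tttgtaaagaattt

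Tfap2d and Tfap2b are neighbours on chromosome 1 in the same orientation, 42567 nt apart with 0 annotated genes between them. Of the 20 genes within 1 Mb of the pair, these were the only ones with a mean count of 20 or more, and 14 of the other 18 were at 0 counts in both libraries. The neighbours had ratios of opposite sign, -3.52 for Tfap2d and 0.16 for Tfap2b. The antisense gene Gm15825, 1 exon of which overlaps an exon of Tfap2d-201, had 1.06 counts in replicate 2 and 1.08 in replicate 1. The pseudogene Gm10075, which lies on the minus strand within the span of Tfap2d but outside its exons, had 0 counts in replicate 2 and 7.22 in replicate 1. Whether counting used strand is not given in the sources used here, so reads of Tfap2d and of Gm15825 could not be told apart where their exons overlap. Both were named after their values were seen.

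**Figure D4:**
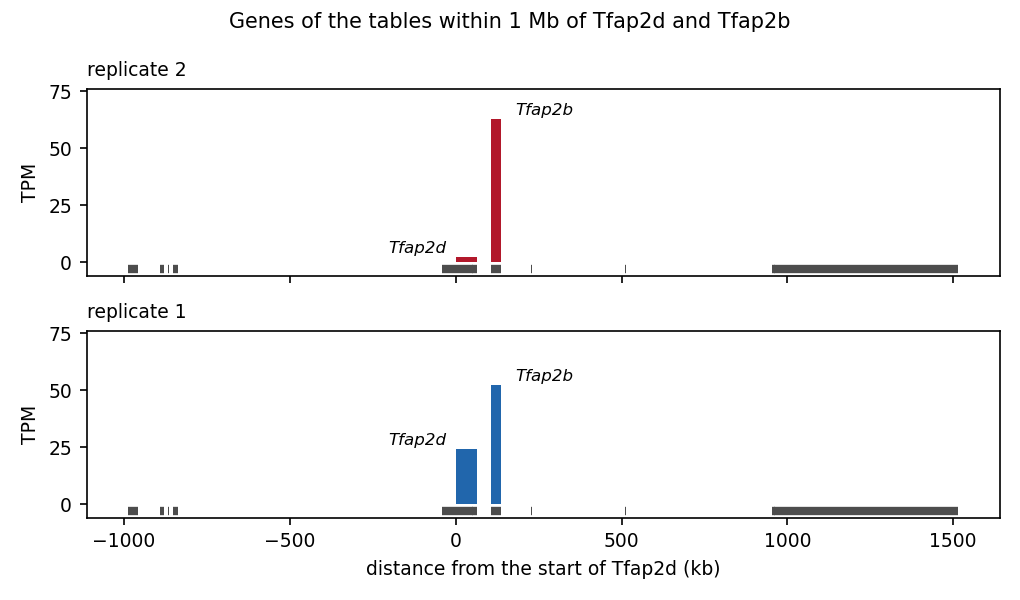
Bars give the TPM of genes within 1 Mb of Tfap2d and Tfap2b by distance from the start of Tfap2d in kilobases, replicate 2 above replicate 1, with grey blocks for the gene spans. Tfap2d and Tfap2b are the only genes there with a mean count of 20 or more, and Tfap2d alone of the pair is lower in replicate 2.

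Promoter windows of 250 nt upstream of RefSeq start sites (GRCm38.p6) are printed for the neighbouring pair Tfap2d and Tfap2b. Capitals mark E-boxes (CANNTG), the letters bound by bHLH factors. Both strands were searched for this motif, for an AP-2 site (GCCNNNGGC) and for a TATA box (TATAAA), which can overlap one another. Of 32851 mouse windows of that length, 66.2% hold the E-box letters, 13.7% the AP-2 letters and 12.4% the TATA letters. The window before the first Tfap2d start (chr1:19102772-19103021, plus strand) has 39.6% GC, against a median of 52.4% over all windows, and holds none of the motifs. The window before a start inside the first intron of Tfap2d-201 (chr1:19103883-19104132, plus strand) has 55.2% GC and E-boxes whose first bases are at -200, -166 and -51 from the start. The window before the start of Tfap2b-202 (chr1:19211804-19212053, plus strand), within introns of Tfap2b-201 and Tfap2b-204, has 46.4% GC and 1 E-box, at -58. No window was listed for the starts of Tfap2b-201 and Tfap2b-204, so the pair is not compared at like starts. The AP-2 and TATA letters were in none of the 7 windows listed for Tfap2a, Tfap2b, Tfap2d and Tfap2e, and a match or its lack says nothing of binding.
Tfap2d, first start: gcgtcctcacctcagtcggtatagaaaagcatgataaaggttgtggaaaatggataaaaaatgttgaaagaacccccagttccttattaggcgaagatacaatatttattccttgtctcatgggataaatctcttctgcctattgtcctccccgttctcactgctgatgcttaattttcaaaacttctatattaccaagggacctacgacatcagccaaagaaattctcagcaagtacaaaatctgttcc
Tfap2d, intronic start: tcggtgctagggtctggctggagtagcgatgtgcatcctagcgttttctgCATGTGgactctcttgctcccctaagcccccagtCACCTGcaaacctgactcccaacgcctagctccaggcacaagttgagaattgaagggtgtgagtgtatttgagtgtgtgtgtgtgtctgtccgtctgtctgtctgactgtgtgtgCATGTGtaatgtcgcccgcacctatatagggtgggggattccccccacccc
Tfap2b, start of Tfap2b-202: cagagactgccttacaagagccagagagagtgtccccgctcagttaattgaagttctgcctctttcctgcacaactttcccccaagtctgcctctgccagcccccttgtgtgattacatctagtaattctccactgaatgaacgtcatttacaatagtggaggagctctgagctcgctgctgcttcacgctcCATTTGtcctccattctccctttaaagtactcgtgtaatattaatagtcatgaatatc

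The protein-coding genes nearest to Tfap2d in ratio were Neurog1, Dbx1, Pou4f3 and Bhlhe23. They were the nearest of 12969 genes by the difference in log2 ratio over 2 libraries, a measure that 1 difference between libraries fixes. Neurog1, a proneural bHLH gene, had 1.24 TPM in replicate 2, against 13.1 TPM in replicate 1, a log2 ratio of -3.42 (-3.87 to -3.02). Dbx1, a homeobox gene of ventral interneuron progenitors, had 3.27 TPM in replicate 2, against 51.81 TPM in replicate 1, with -4.02 (-4.25 to -3.80). Both were more than 10 times lower in TPM in replicate 2. Pou4f3, a POU gene known from hair cells of the ear, had 0.71 TPM in replicate 2, against 5.06 TPM in replicate 1, with -2.85 (-3.35 to -2.40). Bhlhe23, a bHLH gene, had 0.59 TPM in replicate 2, against 4.18 TPM in replicate 1, with -2.84 (-3.39 to -2.37). All 4 were low in replicate 2, and none lies near Tfap2d: they are on chromosomes 13, 7, 18 and 2.

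Regulators and partners of AP-2 factors were present, with ratios near those of most genes. All 15 of 15 listed genes were detected in both, their median level was 49.8 TPM in replicate 2, against 43 TPM in replicate 1, and 0 of 15 passed 2-fold, against 1.93% of all genes. A count of 0 of 15 is near the share over all genes, so nothing about AP-2 regulators is read from it. The median log2 ratio of the 15 was -0.0793, against -0.00161 over all genes, whose SD was 0.403. Among the highest were Sumo2, which encodes a small modifier protein, at 746.11 TPM in replicate 2, against 773.31 TPM in replicate 1, and Sub1, a coactivator gene, at 389.1 TPM in replicate 2, against 429.87 TPM in replicate 1. Named after their values were seen, Cited2, a coactivator of AP-2, had 71.27 TPM in replicate 2, against 60.5 TPM in replicate 1, and Kctd15, an inhibitor of AP-2alpha, had 19.04 TPM in replicate 2, against 20.48 TPM in replicate 1.

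Of 14 genes described as AP-2 targets, 9 were detected in both libraries. The list does not separate targets by family member and holds none of the genes named as nearest to Tfap2d. Nothing about Tfap2d is therefore read from the list. The median level of the 14 was 6.77 TPM in replicate 2, against 6.17 TPM in replicate 1, with a median log2 ratio of 0.056 over the 13 compared. The highest were Cdkn1a, a cell cycle inhibitor, at 107.32 TPM in replicate 2, against 101.76 TPM in replicate 1, and Igfbp5, whose product binds insulin-like growth factors, at 45.62 TPM in replicate 2, against 38.84 TPM in replicate 1. The receptor gene Kit followed at 40.27 TPM in replicate 2, against 38.01 TPM in replicate 1. The 1 gene past 2-fold was the homeobox gene Dlx5, at 1.66 TPM in replicate 2, against 0.32 TPM in replicate 1, a log2 ratio of 2.29 (1.39 to 3.41). Dlx5 also belongs to the forebrain list.

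Markers of the cells in which AP-2 genes are known are given list by list, without a test between lists. Over all genes 1.36% were past 2-fold and lower in replicate 2 and 0.574% higher. Of 20 genes of the hindbrain and cerebellar GABAergic lineage 16 were detected in both, and the median log2 ratio of the 18 compared was 0.193. In that list 2 genes were past 2-fold and lower in replicate 2, namely Neurog1 and Neurog2, the second at 5.4 TPM in replicate 2, against 14.15 TPM in replicate 1. The 1 past 2-fold and higher was Prdm13, which acts with Ptf1a, at 0.84 TPM in replicate 2, against 0.36 TPM in replicate 1. Its log2 ratio was 1.08 (0.35 to 1.89), and 0.97 with scaling by spike-in totals, which ends the call. Of 11 noradrenergic and sympathetic genes 9 were detected in both, 0 of the 9 compared passed 2-fold, and the median was 0.0998. Of 15 genes of neural crest, glia and sensory ganglia 12 were detected in both, with a median of -0.254, and 1 of the 15 compared was past 2-fold and lower in replicate 2.

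Markers of the posterior midbrain and tectum, where Tfap2d is known, were more often lower than higher in replicate 2, and Tfap2d was lower there too. Of the 18 genes compared, 12 had a ratio below 0 and 6 had one above 0. Such a split was not particular to this list. Below and above 0 were 12 and 3 genes of the neural crest list, 12 and 1 of the meningeal list, and 10 and 5 of the AP-2 regulators. Other lists leaned the other way, with 6 and 12 in the GABAergic list and 2 and 10 in the choroid plexus list. In replicate 2, 6 were past 2-fold and lower and 0 were past 2-fold and higher. The median log2 ratio of the list was -0.49, against -0.00161 over all genes, of which 1.36% were past 2-fold and lower. The list was chosen with ratios of some of its genes known, so its count is not independent of them. None was at 0 counts in either library, and the summed level was 363 TPM in replicate 2, against 374 TPM in replicate 1. Most of that sum came from Mab21l2 and Rhob, named after their values were seen, which were higher in replicate 2. Mab21l2 had 170.51 TPM in replicate 2, against 147.79 TPM in replicate 1, and Rhob 86.12 against 78.16 TPM. Furthest below 0 in ratio were Pou4f3, given above, and Tal2, a bHLH gene of midbrain GABAergic neurons. Tal2 had 0.65 TPM in replicate 2, against 4.39 TPM in replicate 1, a log2 ratio of -2.78 (-3.24 to -2.36). Pax7, a paired box gene of the dorsal midbrain, had 0.32 TPM in replicate 2, against 0.87 TPM in replicate 1, and En2, an engrailed gene of the midbrain and cerebellum, had 0.48 TPM in replicate 2, against 1.07 TPM in replicate 1. The members chosen for this list are partly also expressed in hindbrain, and the part of midbrain tissue in the difference of Tfap2d was not tested.

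Forebrain markers did not move as one. Of the 12 compared, 8 were past 2-fold and higher in replicate 2 (0.574% of all genes) and 1 was past 2-fold and lower (1.36% of all genes), with a median of 2.03 that was the same with zero counts set at their bound. The summed level was 64.3 TPM in replicate 2, against 78.6 TPM in replicate 1, and 2 of 14 genes were detected in both libraries. Dlx1, a homeobox gene of GABAergic forebrain neurons, had 5.52 TPM in replicate 2, against 0.30 TPM in replicate 1. The cortical genes Emx1 and Fezf2 had 1.52 and 0.91 TPM in replicate 2, against 0.03 and 0.02 TPM in replicate 1. With 1 count each in replicate 1, their log2 ratios were 5.19 (3.21 to 11.07) for Emx1 and 5.12 (3.13 to 11) for Fezf2. The 1 gene past 2-fold and lower, Lhx2, a LIM homeobox gene that is outside the 4 named by rule and was named after its values were seen, had 9.96 TPM in replicate 2, against 50.71 TPM in replicate 1. Without Lhx2 the summed level of the list was 54.4 TPM in replicate 2, against 27.9 TPM in replicate 1, so that the order of the libraries turned round. Most of that sum came from Neurod6, named after its values were seen, at 35.36 TPM in replicate 2, against 23.64 TPM in replicate 1. Its log2 ratio was 0.55 and not past 2-fold. The part of forebrain tissue in these values and in those of Tfap2d was not tested.

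The other lists cover tissues that use AP-2 factors or border the hindbrain. In the surface ectoderm list, where Tfap2a and Tfap2c are known, 11 were compared, 1 was past 2-fold and lower in replicate 2 (1.36% of all genes) and 2 were past 2-fold and higher (0.574% of all genes), with a median of -0.0228 and summed levels of 40.3 TPM in replicate 2, against 38.6 TPM in replicate 1. The keratin genes Krt5 and Krt15 were the 2 past 2-fold and higher, at 0.60 and 1.05 TPM in replicate 2 against 0.15 and 0.39 TPM in replicate 1, and Esrp1, an epithelial splicing regulator, was lower, at 0.12 TPM in replicate 2, against 0.57 TPM in replicate 1. These genes had few counts, and the part of ectoderm in the levels of Tfap2c was not tested. In the olfactory list, where Tfap2e is known, 4 of 9 genes were detected in both and 7 were compared. Tbr1, a T-box gene of glutamatergic neurons, was higher at 2.63 TPM in replicate 2, against 0.80 TPM in replicate 1. Trpc2, a vomeronasal channel gene, had 0 counts in replicate 2 and 46.36 in replicate 1, at least 16.6-fold lower in replicate 2 against a floor of 3 counts per library.

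In the inner ear list 2 of 7 genes compared were past 2-fold, Pou4f3 and Otx1, and both belong to the midbrain list too. Otx1, a homeobox gene, had 1.56 TPM in replicate 2, against 2.86 TPM in replicate 1. In the retina list the eye field gene Rax, at 0.07 TPM in replicate 2, against 0.91 TPM in replicate 1, was lower, with a log2 ratio of -3.53 (-6.08 to -2.08) on 3 counts in replicate 2, and Atoh7, a bHLH gene, was higher at 14.8 TPM in replicate 2, against 6.94 TPM in replicate 1. The log2 ratio of Atoh7 was 1.05 (0.62 to 1.51), and 0.94 with scaling by spike-in totals, which ends the call. All 13 meningeal genes were detected in both libraries and 0 passed 2-fold, with a median of -0.357 and summed levels of 1160 TPM in replicate 2, against 1590 TPM in replicate 1. Of 12 choroid plexus genes 10 were detected in both and 0 passed 2-fold, with a median of 0.295 and summed levels of 1420 TPM in replicate 2, against 1060 TPM in replicate 1.

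**Figure D5:**
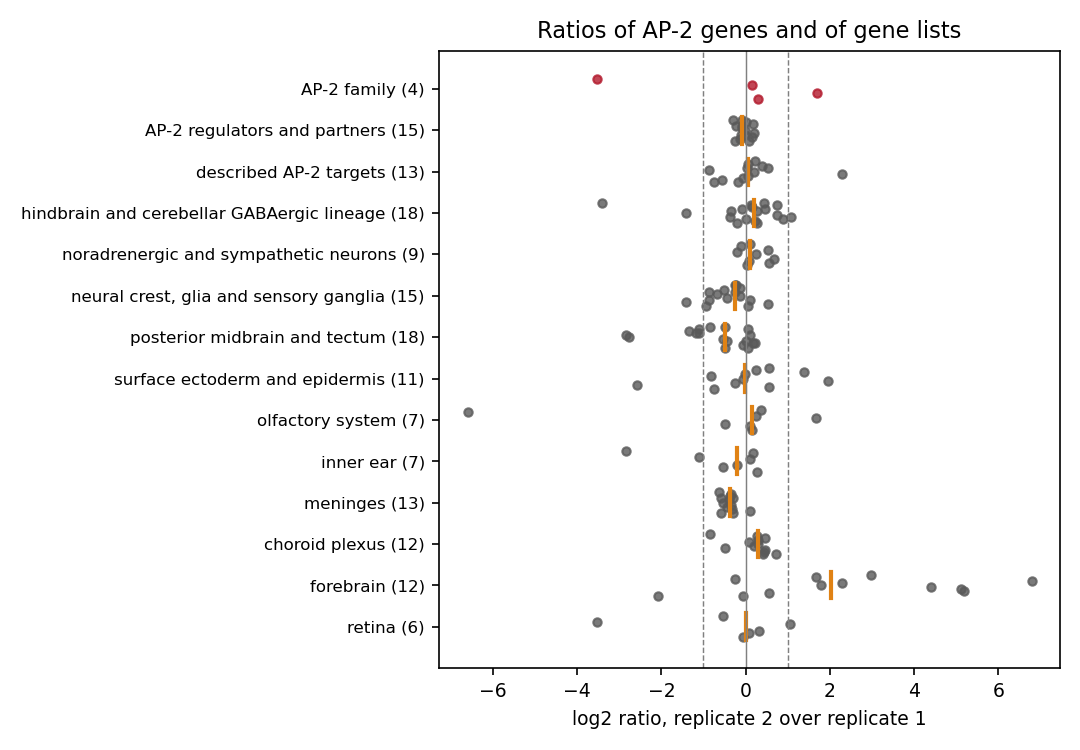
Log2 ratio of replicate 2 over replicate 1 for each gene compared in the 13 lists, with a bar at each list's median, dashed lines at 2-fold and the AP-2 genes in the top row. The outermost olfactory and forebrain points rest on 0 counts in 1 library. The posterior midbrain genes have a median of -0.49 and the forebrain genes one of 2.03. The regulators of AP-2 lie close to 0, as most genes do.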

How the data were processed

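Gene and transcript tables of each library, 2 in all, were used. Per the file headers, mm10 and GENCODE M4 underlie the values of each library. No source used here gives the aligner, the quantifier or the use of strand. Estimated counts, as deposited, are reads assigned to a gene or transcript without scaling. TPM and FPKM were scaled by the authors over all features of a file, and FPKM was an alternative only. The bounds of the TPM interval, a signal per the file headers, and the deposited percent of a gene's TPM per transcript came from the same tables; shares printed here were computed from transcript TPM. The effective length was transcript length less 99 nt for 100% of transcripts.

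GENCODE M21 on GRCm38 gave names and positions, by identifier without version, for 42462 of 43346 identifiers; the rest held 0.2% of counts. Spike-ins, 3.09% of counts in replicate 2 and 2.86% in replicate 1, stayed out of library sizes. Scaling was by TMM (edgeR 4.0.16, R 4.3.3) over genes whose mean count reached 20, with a prior count of 0.5. The libraries were kept as separate replicates, as the labels give them. Over 17059 genes the chi-square between them, divided by its degrees of freedom, was 12.4, where counting error alone would give about 1. Detection was 1 TPM or more. Promoter windows are from RefSeq.

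The members and lists were chosen with earlier results of these data known. Named were all members, per list the genes past 2-fold (at most 4 by size), the 3 highest in the lists of regulators and targets, and the 4 genes nearest to Tfap2d. Some genes taken by that rule are not reported here. All 162 list genes were matched. Alternatives were other scalings, filters, pseudocounts, estimators and each library alone.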

Additional observations from a re-analysis of the deposited data

How the results depend on the processing

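Of the 130 values recomputed under another setting, 109 moved by less than the spread between replicates or stayed on their side. A further 21 moved and 0 changed sign. The 109 include levels and transcript shares from each library alone. With 2 libraries, either value always differs from their mean by less than the SD, so that outcome was fixed in advance. Tfap2d counted as unmoved at 2.2 TPM in replicate 2 and 24 TPM in replicate 1, against a mean of 13.1 TPM. Nothing about stability is read from those settings. With TPM rescaled over nuclear coding genes, Tfap2a was at 9.67 and Tfap2b at 73 TPM. Spike-in scaling moved the median gene by -0.11 on the log2 scale and gave Tfap2b a ratio of 0.05, Tfap2c 1.60 and Tfap2d -3.63. With TPM ratios, Tfap2b was at 0.27 with a pseudocount of 0.1 and 0.26 with 1. With a pseudocount of 1, Tfap2c was at 0.42, where its levels below 1 TPM could not give 2-fold, and Tfap2d at -2.97. As shares of estimated counts, an alternative added after seeing the data, Tfap2b-204 held 38.4% and Tfap2d-201 96.4%. Tfap2c-201 held 31.9% on posterior means. Genes past 2-fold numbered 85 with a pseudocount of 1 (57 lower, 28 higher in replicate 2), 60 at a mean count of 100 (43 lower, 17 higher) and 4974 with no filter (2670 lower, 2304 higher), against 330 (232 lower, 98 higher). Under spike-in totals, added later too, the neural crest list had 2 genes past 2-fold (1 more), the retina list 1 (Atoh7 lost) and the GABAergic list 2 (Prdm13 lost). The cause was not tested.

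Each library alone gave 3 members detected. Tfap2d then ranged between 2.2 and 24.04 TPM, so its mean rests on replicate 1. No paired analysis was possible because there is only 1 group. With 1 library a pool, depth limits Tfap2c and Tfap2e most, at 13 to 47 and 14 to 21 counts.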
